A study of Rattus norvegicus with 4 samples.

Results

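The insulin-like growth factor (IGF) family of rat olfactory ensheathing cells was described here through 10 members, namely the ligands Igf1 and Igf2, the receptors Igf1r and Igf2r, and the binding proteins Igfbp2 to Igfbp7. Members were taken as every non-control probe whose gene name on the array was that of a member, once the tags that mark predicted or mapped genes were removed. This gave 9 members with 15 probes and 42 spots, of 35658 gene names on the array, and Igfbp7 had 0 probes under its name. These glia enclose the axons that run from the nose to the brain. The cells of olfactory mucosa and of olfactory bulb came from male Fischer rats and were grown with 1 protocol. There were 4 biological replicates, each a mucosa and a bulb sample paired on a two-colour array, where mucosa RNA was labelled with Cy5 and bulb RNA with Cy3. The dyes were never exchanged, so tissue and dye cannot be told apart, and all cells came from culture.

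IGF-1 and IGF-2 are secreted growth factors that bind the receptor tyrosine kinase encoded by Igf1r and so act on survival, growth and myelination of neural cells. The receptor encoded by Igf2r takes up IGF-2 and carries it to lysosomes, and it is not a kinase. IGF binding proteins hold the ligands outside the cell, prolong their life and either limit or aid their access to the receptor.

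Rat Igf1 can start at either of 2 leader exons, exon 1 and exon 2, which are each spliced to the same next exon. The array had a probe across each of these junctions, shown because the results turn on them, together with a probe directly before the exon 2 probe and one far downstream. All were 60 bases long. Capitals mark the bases that lie in the shared next exon, which begins at position 24537046 of chromosome 7 in the rn4 build. The probe coordinates are those of the array files, on the plus strand of rn4.
Igf1 exon 1 probe, chr7:24531970-24537063: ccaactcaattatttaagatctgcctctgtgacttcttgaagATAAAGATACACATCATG
Igf1 exon 2 probe, chr7:24533810-24537048: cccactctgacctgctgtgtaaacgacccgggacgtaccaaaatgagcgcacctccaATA
Igf1 upstream probe, chr7:24533750-24533809: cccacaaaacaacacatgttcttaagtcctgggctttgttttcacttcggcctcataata
Igf1 downstream probe, chr7:24604715-24604774: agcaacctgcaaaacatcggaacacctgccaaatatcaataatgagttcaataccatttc
The exon 1 probe had 42 bases before the shared exon and 18 in it, and the exon 2 probe had 57 and 3. The exon 2 probe thus lies almost wholly before the junction, and its first bases precede the RefSeq start given below. Both leader exons were named from their order along the gene, since no exon annotation of rn4 was used here.

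RefSeq places a start of Igf1 at exon 2, and its window on the GRCr8 build, chr7:24172282-24172581 on the plus strand, is shown because 2 of the Igf1 probes fall into it. Capitals mark the 117 bases that these probes match, and the window holds 250 bases before the start and 50 after it.
Igf1 RefSeq window: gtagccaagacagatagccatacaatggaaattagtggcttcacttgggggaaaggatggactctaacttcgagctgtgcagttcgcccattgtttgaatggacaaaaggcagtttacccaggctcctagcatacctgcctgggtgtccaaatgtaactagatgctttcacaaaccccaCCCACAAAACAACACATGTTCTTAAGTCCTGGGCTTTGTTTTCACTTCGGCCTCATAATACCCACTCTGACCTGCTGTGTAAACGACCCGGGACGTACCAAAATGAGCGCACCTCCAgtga
The upstream probe matched positions -71 to -12 relative to that start, and the exon 2 probe matched -11 to 46. Only the upstream probe lay whole in the window.

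Median spot signals lay between 567 and 842 in the mucosa channel and between 342 and 382 in the bulb channel, and 82.8% to 91.1% of spots were well above background. The 4 arrays shared 1 slide and 1 scan time, and their number limits the precision of each value. All 14 markers of ensheathing and Schwann glia were well above background on every array in both channels. So were all 6 tested markers of epithelium and all 5 of endothelium, so this does not tell cell types apart. By the limma test described with the members, 0 of the 14 glia markers were higher in mucosa cells and 7 were lower. At an unadjusted p under 0.05 the counts were 0 and 9. Over all gene names tested, 3.24% were higher and 3.39% lower, and 23.8% had an unadjusted p under 0.05. Their summed level was 25710 to 29112 in mucosa cells and 50118 to 68449 in bulb cells. Of 13 fibroblast and meningeal markers 5 were higher and 3 lower (7 and 3 at an unadjusted p under 0.05). Their summed levels were 309668 to 359639 in mucosa cells and 123696 to 186665 in bulb cells. Smooth muscle and pericyte markers were higher for 4 of 6 and lower for 0 (4 and 1 at an unadjusted p under 0.05), at 94947 to 107067 in mucosa cells and 17742 to 28019 in bulb cells. All 13 and all 6 of these were well above background on every array of both channels. Neuron markers were lower for 3 of 10 and astrocyte markers for 2 of 7, with 0 higher in either list. Endothelium and epithelium each had 1 higher and 1 lower, of 5 and 6 tested. Of 7 macrophage and microglia markers 0 passed. The part of these differences in the IGF results was not tested. In each case, fewer cells of a type and less RNA per cell cannot be told apart.

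Igf1r and Igfbp5 passed the test on the log2 ratio of mucosa over bulb. Igf1r, the signalling receptor, was 2.27-fold higher in mucosa cells, and Igfbp5, a binding protein, was 2.17-fold lower. That is 2 of 9 members, where 6.62% of the 31868 gene names tested passed an adjusted p of 0.05 (limma, Benjamini-Hochberg over all names; 3.24% higher and 3.39% lower). Over all names 1031 were higher and 1079 lower, or 1466 and 993 with median centring in place of loess. At an unadjusted p under 0.05 the count was 6 of 9, beside 23.8% of all names, and 6 of 9 had the same sign on all 4 arrays, beside 33.6%. Levels of the mucosa and bulb cells did not overlap for 5 of 9 members, beside 19.8% of all names. The median absolute log2 ratio was 1.11 over the members and 0.37 over all names, and the median SD between arrays was 0.77 over the members and 0.53 over all names. Per probe, 4 of 15 passed, 3 higher and 1 lower, where 6.55% of 36713 probes did (3.13% higher and 3.42% lower). The levels did not overlap at 9 of 15 probes, beside 19.6% of all probes. The members were chosen with earlier results of these data known, which limits what these shares can show. All 15 probes passed the filter on dim spots, were well above background on all arrays in both channels, and had no saturated spot.

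**Figure D1:**
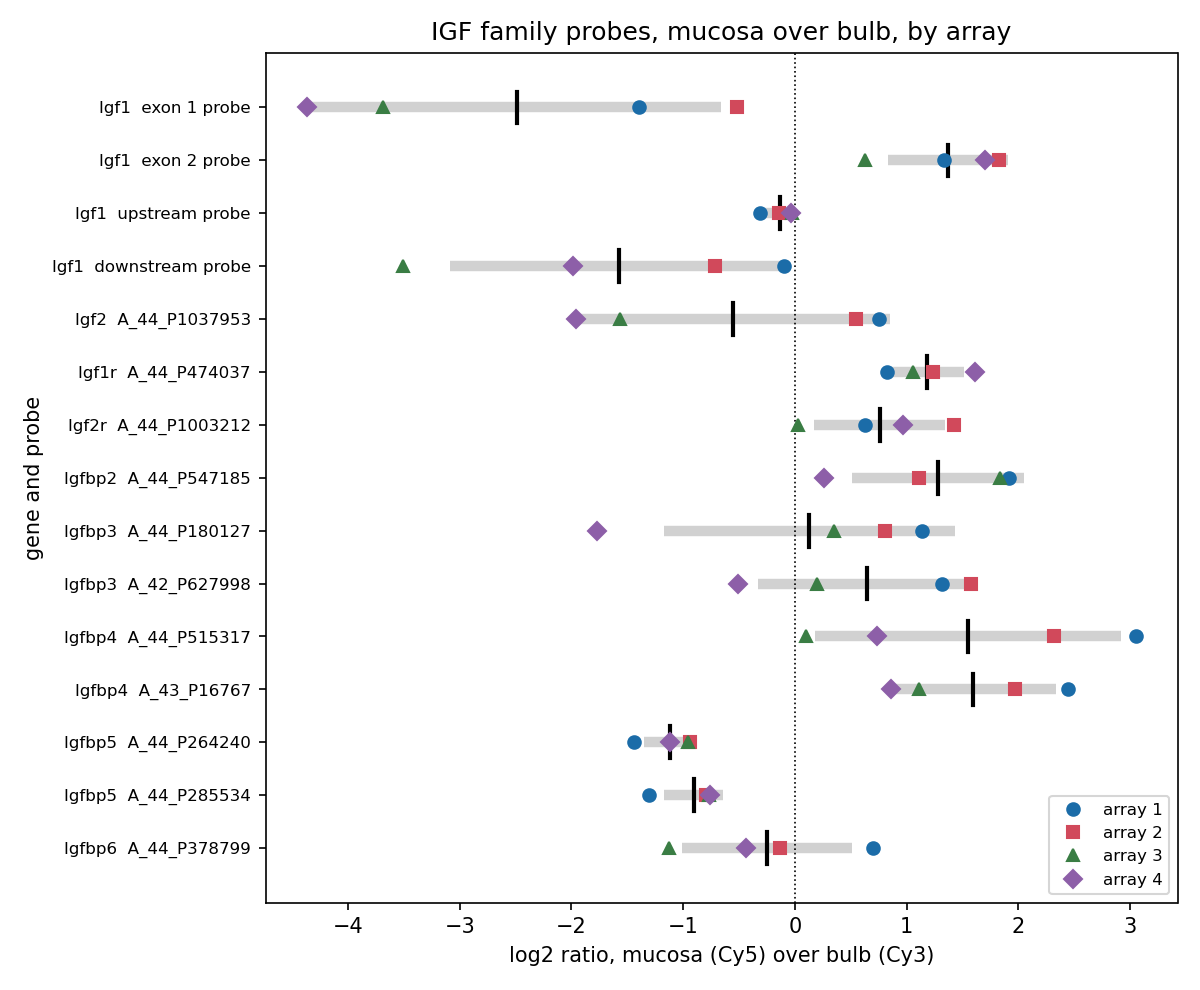
Log2 ratio of mucosa (Cy5) over bulb (Cy3) for each of the 15 probes of the IGF family, with 1 symbol per array, a black line at the mean of 4 arrays and a grey bar of 1 SD to each side. The Igf1 exon 1 and exon 2 probes lie on opposite sides of 0 on all 4 arrays, and the probes of Igf1r and Igfbp5 have narrow spreads.

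The ligand Igf1 gave opposite ratios at its leader exons. Its exon 1 probe, the brightest of the gene and therefore the one that stands for it, had normalized intensities of 2733, 3397, 1103 and 600 in mucosa cells of arrays 1 to 4, against 7173, 4853, 14240 and 12386 in bulb cells. Every mucosa level lay below every bulb level, and the gap was widest on arrays 3 and 4. The mean log2 ratio was -2.49 ± 1.83 (SD, n = 4, 95% confidence interval -4.08 to -0.90), a 5.62-fold lower mean that did not pass the test (adjusted p = 0.0817, limma). The ratio was -3.15 without replicate 2, -1.87 without replicate 4, and -0.71 when the mean over all Igf1 probes stood for the gene. Its exon 2 probe had 2839, 2684, 1753 and 2875 in mucosa cells, against 1124, 758, 1133 and 883 in bulb cells. Here every mucosa level lay above every bulb level. The log2 ratio at exon 2 was 1.37 ± 0.54 (n = 4), a 2.59-fold rise that passed over all probes (adjusted p = 0.0357, limma). That call was lost without replicate 1, 2 or 4 (adjusted p = 0.115, 0.143 and 0.114) and with the processed signals of the scanner software (adjusted p = 0.0630).

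**Figure D2:**
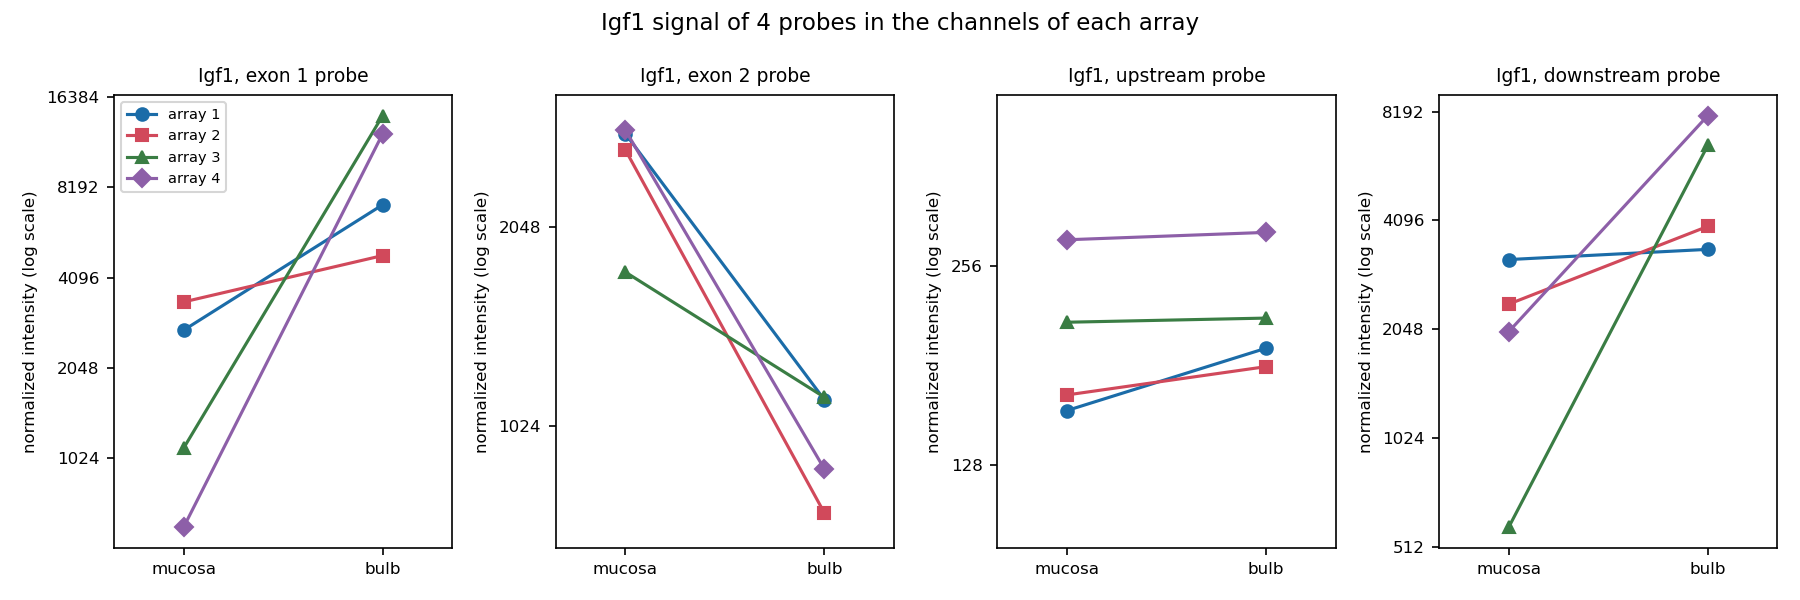
Normalized intensity (log scale) of the 4 Igf1 probes in mucosa and bulb cells, with the channels of an array joined by a line. Lines fall toward mucosa on all 4 arrays for the exon 1 and downstream probes, lie above bulb in mucosa for the exon 2 probe, and are nearly level for the upstream probe.

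The downstream Igf1 probe, 67.7 kb beyond the exon 1 probe in rn4, had 3191, 2402, 579 and 2014 in mucosa cells, against 3406, 3943, 6608 and 7988 in bulb cells. Its levels also did not overlap, with mucosa cells the lower. The log2 ratio was -1.58 ± 1.51 (n = 4, adjusted p over probes = 0.154, limma). The upstream probe, measured at 10 spots, was dim in both, at 155 to 280 in mucosa cells and 180 to 288 in bulb cells. Its levels overlapped, with a log2 ratio of -0.13 ± 0.13 (n = 4, adjusted p over probes = 0.726, limma). The exon 2 probe thus had the reverse sign of the exon 1 and downstream probes on each array.

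Within arrays, the exon 2 ratio exceeded the exon 1 ratio by 2.73, 2.34, 4.32 and 6.07 on arrays 1 to 4, a mean of 3.86 ± 1.70 log2 units (n = 4). Exon 2 exceeded the downstream probe by 2.95 ± 1.22, again on 4 of 4 arrays, and the downstream probe exceeded the exon 1 probe by 0.91 ± 1.17. An exact two-sided sign-flip test gave p = 0.125, 0.125 and 0.375 for these, or 0.25, 0.25 and 0.45 after Benjamini-Hochberg adjustment over 6 probe pairs of the family. With 4 arrays that test cannot go below 0.125, so no difference could pass. The contrast of exons was chosen after its values were seen. Of 3971 gene names with several tested probes, 5 (0.126%, Igf1 included) had a range of mean ratios between probes at least as large as that of Igf1. Among 136 names with 4 or more probes, Igf1 was the 1 name with such a range (0.735%). The median range was 0.40 over the names with several probes and 0.70 over those with 4 or more.

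Igf2, the other ligand, varied in sign between arrays. Its probe had 899, 711, 322 and 358 in mucosa cells, against 534, 486, 953 and 1389 in bulb cells. Mucosa cells were the higher on arrays 1 and 2 and the lower on arrays 3 and 4, and the levels overlapped. The log2 ratio of -0.56 ± 1.40 did not pass (n = 4, 95% confidence interval -1.81 to 0.69, adjusted p = 0.550, limma), and it was -0.99 to -0.089 with 1 replicate left out. H19, the imprinted neighbour of Igf2, had no probe under its name.

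Igf1r, the signalling receptor, was higher in mucosa cells. The probe lies at chr1:122989150-122989209 on the plus strand of rn4 and is shown because it carries the receptor's call.
Igf1r: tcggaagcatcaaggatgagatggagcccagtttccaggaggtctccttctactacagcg
Averaged over 10 spots, it had 2267, 2027, 2048 and 3058 in mucosa cells, against 1278, 861, 986 and 999 in bulb cells. The lowest mucosa level was above the highest bulb level, and the spots of an array varied by at most 11.5% (coefficient of variation) in the mucosa channel. The log2 ratio was 0.83, 1.24, 1.05 and 1.61 on the 4 arrays, a mean of 1.18 ± 0.33 (n = 4, 95% confidence interval 0.65 to 1.72, adjusted p = 0.0322, limma). The call was lost when any array was left out (adjusted p of 0.0794 to 0.133) and with the processed signals (adjusted p = 0.0603).

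Igf2r, the scavenging receptor, had 690, 752, 641 and 725 in mucosa cells, against 445, 281, 629 and 372 in bulb cells. Levels were separate, but by a small margin on array 3. The log2 ratio was 0.76 ± 0.59 (n = 4, 95% confidence interval 0.092 to 1.43), and it did not pass (adjusted p = 0.166, limma).

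Among the binding proteins, Igfbp5 was the one that passed. Igfbp5 binds matrix as well as IGFs, and its probes are shown because both gave the same direction. They lie on the minus strand of rn4, 3.3 kb apart.
Igfbp5, chr9:72000312-72000371: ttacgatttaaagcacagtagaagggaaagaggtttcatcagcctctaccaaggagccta
Igfbp5, chr9:72003659-72003718: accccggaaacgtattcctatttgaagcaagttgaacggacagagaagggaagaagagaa
The brighter, at the lower coordinates, had 36382, 43786, 39830 and 37845 in mucosa cells, against 98764, 83850, 77512 and 82293 in bulb cells. The levels were far apart and varied little within each tissue. Its log2 ratio was -1.44, -0.94, -0.96 and -1.12, a mean of -1.11 ± 0.23 (n = 4, 95% confidence interval -1.61 to -0.62, adjusted p = 0.0311, limma). The other probe had 10864, 14284, 15167 and 13279 in mucosa cells, against 26833, 24746, 25848 and 22435 in bulb cells, with no overlap. Its log2 ratio of -0.91 ± 0.27 did not pass over all probes (n = 4, adjusted p = 0.0608, limma), and the probes differed by -0.21 ± 0.11 (exact sign-flip p = 0.125). The Igfbp5 call was lost when any array was left out (adjusted p of 0.0789 to 0.114). It was also lost with median centring in place of loess, which moved the ratio to -0.58 (adjusted p = 0.149), and with the processed signals (adjusted p = 0.0514).

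Igfbp2, the neighbour of Igfbp5 on chromosome 9 with probes 33.1 and 36.4 kb apart in rn4 and on the opposite strand, ran the other way. It had 1045, 681, 2058 and 1030 in mucosa cells, against 276, 315, 576 and 859 in bulb cells. Mucosa cells were the higher on each array, though the ranges overlapped. The log2 ratio was 1.28 ± 0.77 (n = 4, 95% confidence interval 0.50 to 2.07) and missed the threshold (adjusted p = 0.0741, limma). It passed with median centring (adjusted p = 0.0472) and with array weights (adjusted p = 0.0441).

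Igfbp4, mainly known as an inhibitor of IGF action, had higher levels in mucosa cells at both probes. These are shown because their calls differ although their ratios are close. They lie on the plus strand of rn4.
Igfbp4, chr10:87829564-87829623: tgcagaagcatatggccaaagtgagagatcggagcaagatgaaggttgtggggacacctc
Igfbp4, chr10:87834213-87834272: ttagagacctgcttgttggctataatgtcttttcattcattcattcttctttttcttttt
The first, which is brighter and stands for the gene, had 20915, 19500, 6320 and 10396 in mucosa cells, against 2517, 3895, 5914 and 6242 in bulb cells. Its levels barely stayed apart, with large ratios on arrays 1 and 2 and small ones on arrays 3 and 4. The mean log2 ratio was 1.55 ± 1.37 (n = 4, adjusted p = 0.134, limma), or 1.05 to 2.04 with 1 replicate left out. The second had 1609, 1357, 896 and 659 in mucosa cells, against 296, 345, 416 and 364 in bulb cells, which did not overlap. Its log2 ratio of 1.60 ± 0.74 passed over all probes (n = 4, adjusted p = 0.0389, limma). The call was lost when any array was left out (adjusted p of 0.0584 to 0.145), with the processed signals (adjusted p = 0.0524) and with scale normalization between arrays (adjusted p = 0.0595). The probes differed by -0.044 ± 0.71 (exact sign-flip p = 0.875).

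**Figure D3:**
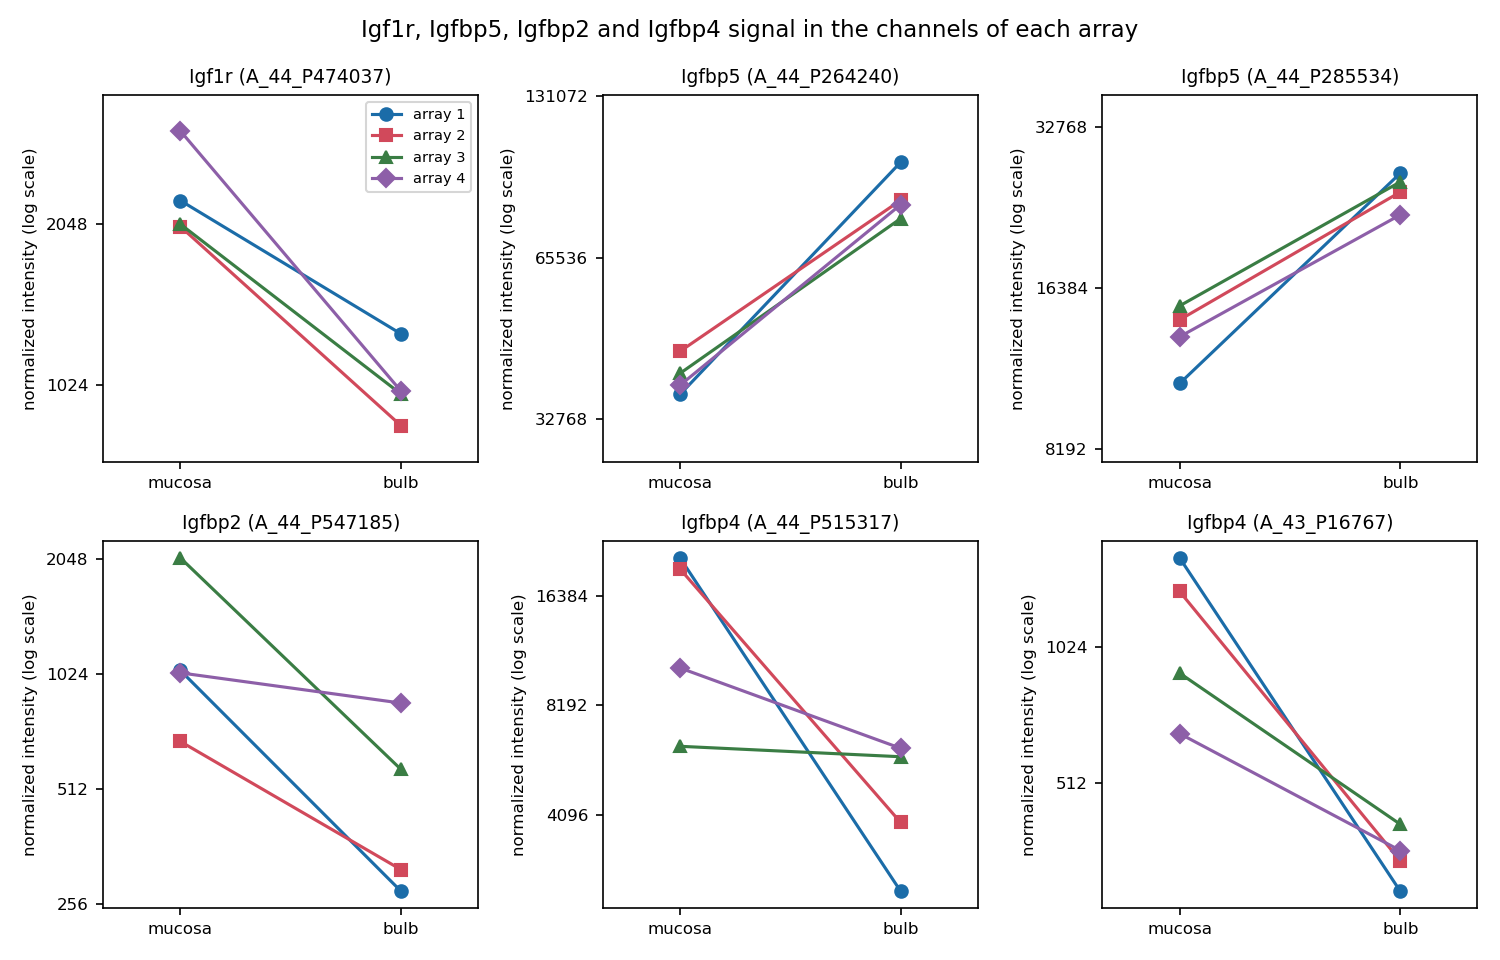
Normalized intensity (log scale) in mucosa and bulb cells for the probes of Igf1r, Igfbp5, Igfbp2 and Igfbp4, with the channels of an array joined by a line. Mucosa lies above bulb on all 4 arrays for Igf1r, Igfbp2 and Igfbp4 and below bulb for Igfbp5.

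Igfbp3, the main carrier of IGFs in blood, was split between arrays. Its probe with 10 spots, which stands for the gene, had 7610, 6461, 5995 and 1920 in mucosa cells, against 3456, 3702, 4706 and 6534 in bulb cells. Array 4 went against the other arrays, and the levels overlapped. The log2 ratio was 0.13 ± 1.31 (n = 4, adjusted p = 0.891, limma), with the sign turned without replicate 1 (-0.20) or replicate 2 (-0.093). The other Igfbp3 probe gave 0.65 ± 0.97 (n = 4, adjusted p over probes = 0.361, limma), also with array 4 below 0. Igfbp6, which prefers IGF-2 over IGF-1, had 869, 737, 258 and 337 in mucosa cells, against 535, 805, 562 and 457 in bulb cells. Its ranges overlapped, and the log2 ratio of -0.25 ± 0.76 did not pass (n = 4, adjusted p = 0.673, limma). Without replicate 3 it was 0.044. The longest stretch that probes of different members shared was 12 bases, in capitals, between Igfbp3 and Igfbp6.
Igfbp3: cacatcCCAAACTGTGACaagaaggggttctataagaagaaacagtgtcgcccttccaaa
Igfbp6: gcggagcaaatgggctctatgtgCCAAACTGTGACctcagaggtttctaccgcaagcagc

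Some member probes had higher ratios on arrays 1 and 2 than on arrays 3 and 4, a split chosen after its values were seen. They were the probes of Igf2 and Igfbp6, the Igf1 exon 1 and downstream probes, and both probes of Igfbp3 and Igfbp4. The Igf1 upstream probe and the second Igfbp5 probe had the reverse order, and the other member probes had neither. The share of all probes on the array with this split was not counted. Beside the split, the median mucosa signal was 842 and 839 on arrays 1 and 2 and 567 and 598 on arrays 3 and 4. The bulb signal was 358, 342, 378 and 382. Of 8 marker lists, 3 had summed levels whose ratio, mucosa over bulb, was higher on arrays 1 and 2 than on arrays 3 and 4. That of macrophages and microglia was 2.60 and 1.42 on arrays 1 and 2 and 0.79 and 1.04 on arrays 3 and 4. For smooth muscle and pericytes it was 5.07 and 5.65 against 3.47 and 4.16, and for fibroblasts and meningeal cells 2.50 and 2.44 against 1.93 and 1.88. Ensheathing and Schwann glia had the reverse order (0.47 and 0.40 against 0.51 and 0.48), as had neurons (0.31 and 0.40 against 0.91 and 0.45). Epithelium had it as well (2.70 and 2.82 against 2.87 and 3.43), and astrocytes and endothelium had neither order. The part of signal strength or of these markers in the split was not tested.

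Genes of the wider IGF pathway passed the test in both directions. The pathway list held 78 genes, of which 73 were on the array and 72 tested. Of these, 4 were higher and 5 lower in mucosa cells, which is 12.5% beside 6.62% of all names, with a median log2 ratio of 0.042 beside 0.012. With median centring 5 were higher and 2 lower, and with a normexp offset of 16 the counts were 4 and 2. The list was chosen with earlier results of these data known, which limits what its share can show. Of the 16 receptors and adaptors, 3 were higher and 1 lower. Grb14, an adaptor that inhibits insulin receptor signalling, was 6.94-fold higher (log2 ratio 2.80 ± 0.24, adjusted p = 0.00241), and Grb10, a related inhibitor listed on the array as RGD1566234, was 3.74-fold higher (1.90 ± 0.43, adjusted p = 0.0100, with 2.00 and 1.84 at its other probes). Irs2, a docking protein of IGF and insulin receptors, rose as well (1.26 ± 0.45, adjusted p = 0.0357), with 1.14, 1.31 and 1.08 at its other probes. Gab1, a docking protein for several receptor kinases, fell (-1.04 ± 0.34, adjusted p = 0.0472; each n = 4, limma), a call lost with median centring (-0.79, adjusted p = 0.0947) and with the offset of 16 (adjusted p = 0.0611). Irs1 had a log2 ratio of 0.077 ± 0.36 (adjusted p = 0.859), which turned to -0.16 with median centring, to -0.038 with the processed signals and to -0.089 without replicate 1. The insulin receptor, Insr, had -1.31 ± 1.54 (adjusted p = 0.224), with -3.47 on array 4 and 0.16 on array 3, and a mean of -0.58 without replicate 4.

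Downstream, 0 of 23 genes of the PI3K, Akt and mTOR arm passed in limma, and 2 had an unadjusted p under 0.05, both lower. Over all names, to set beside this and the lists below, 6.62% passed and 23.8% had an unadjusted p under 0.05. In the Ras and MAP kinase arm 2 of 9 fell, the kinases Map2k1 (-1.15 ± 0.42, adjusted p = 0.0427) and Mapk3 (-1.08 ± 0.31, adjusted p = 0.0394, limma). Both calls were lost with median centring (-0.90 and -0.83, adjusted p = 0.0736 and 0.0824) and with the offset of 16 (adjusted p = 0.0544 and 0.0518). Carriers, proteases and their inhibitors gave 1 higher and 2 lower of 17. Plau, the urokinase plasminogen activator, was 5.93-fold higher (2.57 ± 0.80, adjusted p = 0.0110), whereas Plat, the tissue plasminogen activator, was 3.95-fold lower (-1.98 ± 0.27, adjusted p = 0.00613; n = 4, limma). Esm1, a secreted proteoglycan of the endothelium, had a ratio of -1.40 ± 0.64 and fell too (adjusted p = 0.0435), with -0.65 at its other probe and -2.83 with the processed signals. Igf2bp2, which binds Igf2 mRNA and is listed as RGD1305614, had 1.09 ± 0.68 (adjusted p = 0.0916), Igf2bp3 had 0.62 ± 1.93 (adjusted p = 0.622), and Igf2bp1 did not pass the filter on dim spots. Of 5 growth hormone axis genes 0 passed in limma, and 1 had an unadjusted p under 0.05. The calls of Grb14, Plau and Plat held when each array was left out in turn, Grb10 was lost without replicate 1 or 2 (adjusted p = 0.0560 and 0.0612), and Irs2, Gab1, Map2k1, Mapk3 and Esm1 were lost without any 1 array.

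**Figure D4:**
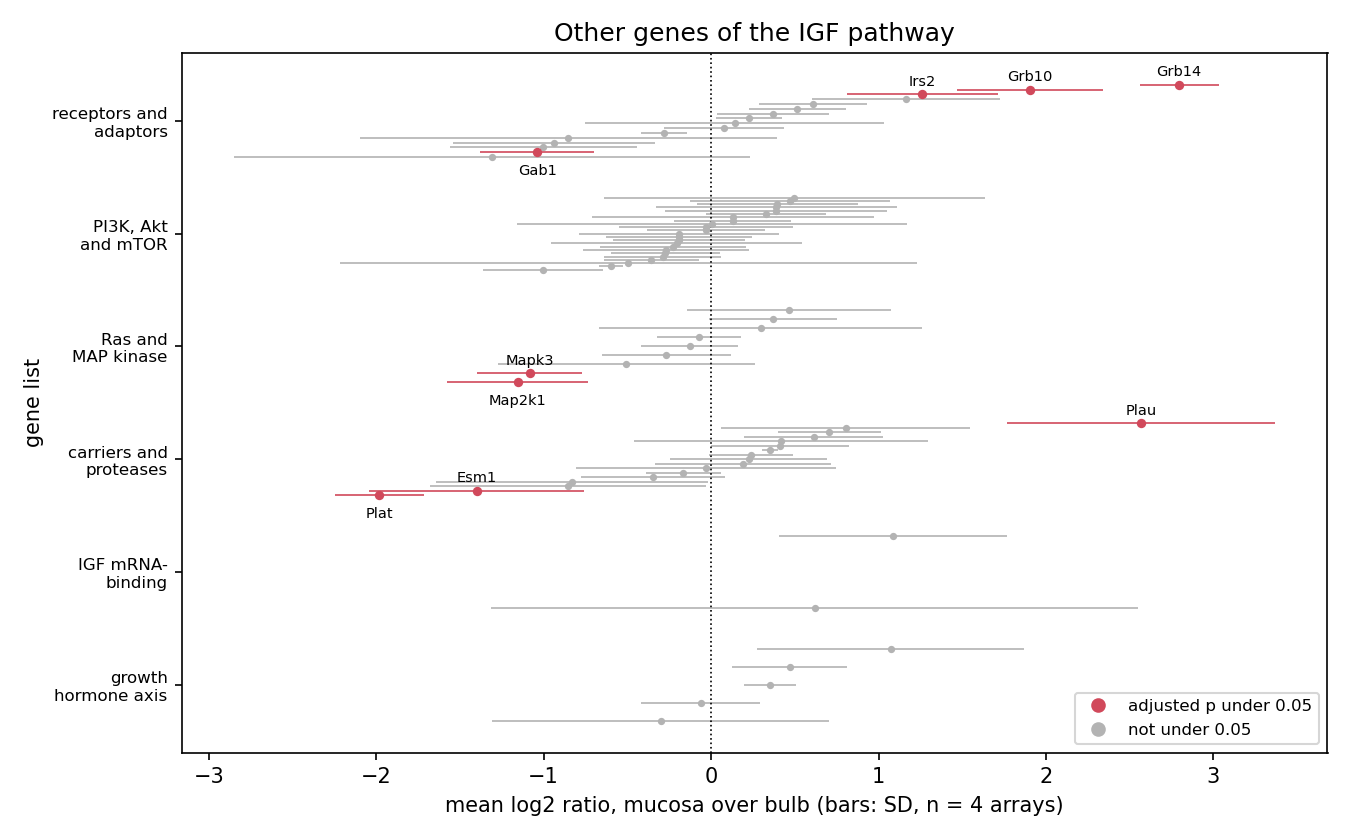
Mean log2 ratio of mucosa over bulb for the 72 tested genes of the IGF pathway list, with bars of 1 SD over 4 arrays, ordered within each gene list. Named points passed an adjusted p of 0.05, with Grb14 at 2.80 the highest and Plat at -1.98 the lowest.

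For the called members, the gene symbols with the nearest ratios over the 4 arrays were taken, by Euclidean distance among 8836 symbols. Nearest to Igf1r were RGD1564712 (distance 0.217), Col9a1 (0.220) and Actn3 (0.272). Nearest to Igfbp5 were Myrip (0.246), Tnfrsf14 (0.365) and Sema4c (0.375).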

How the data were processed

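Per the labels, cDNA made from messenger RNA went through a PCR amplification of undisclosed detail. The scanner files were written, per the file headers, by Agilent Feature Extraction 10.5.1.1, whereas version 9.1 is named in the submitters' processing notes. Spot and background signals were deposited as raw linear intensity. Per the file headers, the software also subtracted background and normalized dyes to give a processed intensity, and its ratio is a log10 value, Cy5 divided by Cy3. The series' value table holds the same log10 ratios, as deposited by the authors. The log2 ratios given here were computed from the deposited intensity values.

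In limma 3.58.1 (R 4.3.3), signals were corrected by normexp (offset 50) and loess within array, with outlier spots left out and spots of a probe averaged. Probes entered the test when, in 1 channel or both, a share of 0.5 or more of their spots was well above background on 3 or more arrays, and the brightest probe stood for a name. Ratios of all 4 arrays were tested against 0 with lmFit and eBayes (6.36 degrees of freedom) and Benjamini-Hochberg adjustment, at 0.05. The array carried the pairing. The fit was checked on simulated data. A first criterion, that it find most sparse changes of a log2 ratio of 2, was not met: it missed nearly all of them. After this was seen the criterion was replaced by recovery at a log2 ratio of 4, by recovery of the called names at their own estimates, by unbiased estimates and by few false calls, all of which were met. Sparse changes of the size of most member ratios would thus mostly be missed in that simulation. Recovery of the called names was favoured in advance, since they were simulated at ratios that had passed in these data. Unbiased estimates and few false calls were favoured as well, since the noise was drawn from the variance model that the fit itself estimated. Levels are channel intensities after loess and are not compared between probes. Named genes were all members, called pathway genes, Insr, Irs1, Irs2, Igf2bp1 to Igf2bp3, and the 3 nearest symbols of each called member. The members and lists were chosen with earlier results of these data known. Names of pathway genes were updated through a GRCr8 reference table, and sequences are from the array files and RefSeq.

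Alternatives were no background subtraction, an offset of 16, processed signals, the value table, median centring, scale and Aquantile normalization, other filters and probe rules, array weights, other variance models, unpaired channels and each replicate left out.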

Additional observations from a re-analysis of the deposited data

Results flagged for a closer look

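One value of a member stood apart from the other arrays. At the second Igfbp5 probe, array 1 had a log2 ratio of -1.30, with the other arrays between -0.79 and -0.76. Its gap to the nearest array was 0.934 of the whole range, above the critical value of Dixon's gap test for 4 samples. Chance passes that value in about 1 in 20 groups, and all 15 member probes were screened. Such a value among them can therefore arise by chance. At the first Igfbp5 probe array 1 was also the lowest, at -1.44.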

How the results depend on the processing

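Of 9 members, all but Igfbp3 and Igfbp6 kept their direction under all 20 alternatives run. With 1 replicate left out, Igfbp3 lay between -0.20 and 0.76, turning to -0.20 and -0.093 without replicates 1 and 2, and Igfbp6 between -0.56 and 0.044, turning without replicate 3. Of the pathway genes named, Irs1 turned to -0.038 with the processed signals and with the value table, -0.16 with median centring and -0.089 without replicate 1 (up to 0.19 without replicate 4). Igf2bp3 lay between -0.00080 and 1.23, turning without replicate 1. Called members numbered 2, against 0 with processed signals, the value table, a trended robust variance, no moderation, or any replicate left out (0 to 0). Called pathway genes numbered 9, against 5 with processed signals and the value table, 4 with a trended variance, 0 with no moderation and 3 to 4 with a replicate left out. Over all names 2110 were called, against 898 with a trended variance, 72 with no moderation and 562 to 1061 with a replicate left out. Median centring gave 1466 higher and 993 lower, against 1031 and 1079. Without the replicate block, that is with unpaired channels, 3483 names and 3 members were called, and Igf1 then passed (-2.49, adjusted p = 0.0252). The cause of these shifts was not tested. Leaving an array out changes both the number of arrays and the values used, and these were not separated. With 4 arrays, ratios with a wide spread, such as those of Igf1, Igfbp4 and Igfbp2, are measured with little precision.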

Other observations

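Other genes with a product like the IGF binding proteins did not pass over all probes (limma, n = 4). Igfbp1, which lies next to Igfbp3 in the rat genome, had a log2 ratio of 0.19 ± 0.52 (adjusted p = 0.694), and Igfbpl1, a binding-protein-like gene, had 0.70 ± 0.31 (adjusted p = 0.120). Igfals, the subunit that holds IGF and Igfbp3 in the circulating complex, had -0.17 ± 0.22 (adjusted p = 0.660). RGD1562534, whose description on the array names an IGF binding protein, had 0.51 ± 0.29 (adjusted p = 0.222, limma).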
